A study of Mus musculus with 7 samples.

Results

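The genes described here are 45 of the 24908 gene symbols in an RNA-seq table of mouse intestinal stromal cells. They were taken by name, as all symbols that begin with Psma, Psmb, Psmc, Psmd, Psme, Psmf or Psmg and end in a number, without the 3 immunoproteasome subunits Psmb8, Psmb9 and Psmb10. They fall into the alpha ring (8 genes) and beta ring (8 genes) of the core particle, the ATPase ring (6 genes), the non-ATPase part of the base (3 genes) and the lid (8 genes) of the regulatory particle, assembly factors (7 genes), and activators with 1 inhibitor (5 genes). The names cover more than the constitutive proteasome. Psma8 and Psmb11 belong to the proteasomes of testis and thymus, and Psme1 and Psme2 encode an activator that interferon induces.

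The proteasome degrades proteins that carry ubiquitin chains. In its core particle, rings of alpha subunits gate the entry and rings of beta subunits hold the proteolytic sites of Psmb5, Psmb6 and Psmb7, which immune cells and interferon-treated cells exchange for Psmb8, Psmb9 and Psmb10. The regulatory particle binds the ubiquitin chain, removes it with Psmd14 and threads the unfolded protein into the core by means of the ATPases Psmc1 to Psmc6. In mammalian cells the transcription factor Nfe2l1, released by the protease Ddi2, raises proteasome gene expression together when proteasome activity is short.

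RNA was sequenced from CD81+ cells with low Pdgfra that had been sorted from the mesenchyme of the intestine, a population of crypt-base fibroblasts known as trophocytes. The 7 libraries were 3 wildtype controls, 2 taken 4 days and 2 taken 6 days after Apc had been inactivated through Apcflox/flox alleles and Villin-CreERT2, a tamoxifen-inducible Cre that the Villin promoter drives in the epithelium. The deletion is therefore made in neighbouring epithelial cells and not in the sorted stroma, and Apc levels here do not check it. Strain, age, any Cre or tamoxifen in the controls, and the number of animals are not given in the sources used here. Replicates may not be separate mice, in which case the tests measure only the spread between these libraries. The comparisons ask how the stromal cells differ once the epithelium has lost Apc.

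Column names mark 1 control and both day 4 knockouts with 4 days, and the other 2 controls and 1 day 6 knockout with 6 days. These are called the day 4 and day 6 harvest sets here. The names do not say whether the libraries of a set were harvested or prepared together. Day 6 and day 4 knockouts thus also differ in set, and a comparison of them alone cannot tell day from set. The column taken as day 6 knockout replicate 2 carries no day and was assigned because the labels left no other sample. It was put in the day 6 set, and its name ends like those of the other day 6 columns. Values below are given in a fixed order, with the day 4 set control first, then the first and second day 6 set controls, then replicates 1 and 2 of each knockout day. They are FPKM, fragment counts scaled for transcript length and library size, so levels can be compared between genes. The depth is not given. Relative depth, a rough estimate from the steps of low values, was 0.747 and 0.824 for the day 4 knockouts against their control, and 0.883 for the second control and 1.6 for both knockouts in the day 6 set.

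The defining markers of the sort were present in all 7 libraries, with Pdgfra at 54.4 to 134 FPKM, Cd81 at 32.4 to 169 FPKM and Grem1 at 101 to 501 FPKM, but not at even levels. Of the 7 trophocyte markers 2 fell at day 4 and 0 rose, where 1.02% of all genes were called. Cd34, a surface glycoprotein of stromal and endothelial cells, was at 454, 506 and 509 FPKM in the controls, 220 and 170 FPKM at day 4 and 298 and 353 FPKM at day 6 (log2 change -1.33 ± 0.21 (SE) at day 4, limma adjusted p = 0.0413). Wnt2b, a Wnt ligand, was at 22.4, 26.8 and 38.2 FPKM in the controls, 10.5 and 11.3 FPKM at day 4 and 16.1 and 19.2 FPKM at day 6 (-1.31 ± 0.23 at day 4, adjusted p = 0.0489). Both lay below all controls in all 4 knockouts, and each call held under 6 of 14 alternatives, with adjusted p from 0.0273 to 0.321 for Cd34 and from 0.0213 to 0.374 for Wnt2b. Both were lost with no filter, with same-set controls and on leaving out either day 6 set control, day 4 knockout replicate 2 or either day 6 knockout. Without day 4 knockout replicate 1 only Wnt2b was lost, and with centred libraries only Cd34. An antisense gene overlaps Cd34. Pdgfra itself was at 61.3, 54.3 and 59.9 FPKM in the controls, 76.5 and 134 FPKM at day 4 and 111 and 89.2 FPKM at day 6, above all controls in all 4 knockouts (0.77 ± 0.21 with both days averaged, adjusted p = 0.175). Of all genes, 5.32% lay above all controls in all 4 knockouts and 6.58% below.

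One library stood apart. Day 4 knockout replicate 2 had the lowest value of the 7 for all 10 macrophage and dendritic cell markers, all 6 B and plasma cell markers and all 5 T cell markers. Summed, the macrophage and dendritic cell markers came to 913 and 36.8 FPKM in day 4 replicates 1 and 2, against 387 to 657 FPKM in controls and 482 to 587 FPKM at day 6. For B and plasma cell markers the sums were 2670 and 39.6 FPKM at day 4, against 318 to 547 FPKM in controls and 240 to 447 FPKM at day 6. For T cell markers they were 6.89 and 0.564 FPKM at day 4, against 2.32 to 4.25 FPKM in controls and 2.02 to 4.66 FPKM at day 6. Of these markers only Ms4a1 was listed at 0, in that library. It also had the lowest Cd81 and the highest sums of smooth muscle (167 FPKM, controls 40.3 to 118) and telocyte markers (146 FPKM, controls 88.8 to 120). Endothelial markers, when summed, were higher in every knockout than in every control. Their sums were 28.9 and 34.0 FPKM at day 4 and 25.5 and 25.3 FPKM at day 6, and 16.1 to 23.2 FPKM in controls. This did not hold for each marker, as Kdr was at 2.37 FPKM in the day 4 set control and 0.622 and 2.09 FPKM at day 6. None of the 6 tested endothelial markers passed by limma, and 4 had an unadjusted p under 0.05 at day 4, where the list's median log2 change was 1.04. Trophocyte markers summed to 864 and 803 FPKM in the day 4 knockouts, against 1089 to 1235 FPKM in controls and 1807 and 1110 FPKM at day 6. The single markers were mixed at day 4. Cd81, Grem1, Wnt2b and Cd34 lay below all controls (22% of all genes did), and Rspo3 overlapped them. Pdgfra lay above all controls, as did Ackr4 at 302 and 325 FPKM against 223 to 279 FPKM (12.5% of all genes did). Glial and neuronal markers summed to at most 0.745 FPKM in any library. Day 6 knockout replicate 1 had the highest summed epithelial markers, at 24.0 FPKM against 1.89 to 8.32 FPKM in the others. Of the 10 epithelial markers 5 were highest in it, 3 in the first day 6 set control and 2 in day 4 knockout replicate 1. In such bulk libraries fewer cells of a type and less RNA per cell cannot be told apart.

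Genes of the core and regulatory particles were expressed within a narrow band. Without Psma8 and Psmb11, the 31 structural genes had means over the 7 libraries from 21.3 FPKM (Psma3) to 102 FPKM (Psma7). The median control level was 43.8 FPKM in the alpha ring, 46.7 FPKM in the tested beta ring, 36.7 FPKM in the ATPase ring, 46.7 FPKM in the rest of the base and 36.4 FPKM in the lid, against 9.82 FPKM over the assembly factors. Of the 45 genes, 44 reached 1 FPKM in at least 2 libraries and were tested. Psmb11, the thymus-specific beta subunit, did not, being listed at 0 in 4 libraries and at most at 0.00988 FPKM in the day 4 set. Psma8 passed this limit only through the day 4 knockouts, with 0.660, 0.816 and 0.458 FPKM in the controls, 1.05 and 1.43 FPKM at day 4 and 0.874 and 0.907 FPKM at day 6. The median SD among the 3 controls was 0.191 on the log2(FPKM + 1) scale over the 44 genes and 0.211 over all 11735 genes tested.

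**Figure D1:**
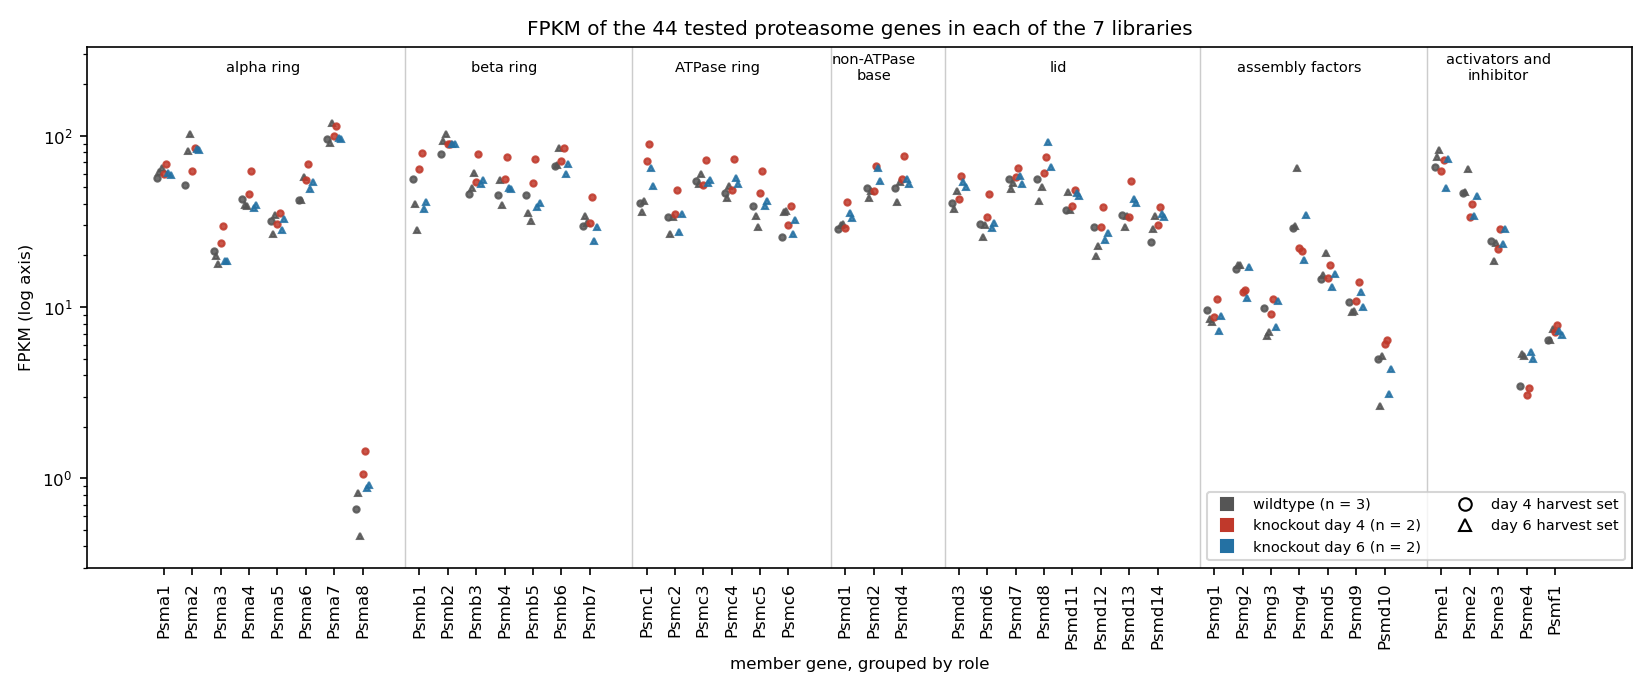
FPKM on a log axis for each of the 44 tested proteasome genes, grouped by role, with 1 point per library (grey wildtype, red day 4 knockout, blue day 6 knockout, circles for the day 4 harvest set and triangles for the day 6 set). Structural subunits other than Psma8 lie between about the level of Psma3 and that of Psma7, and assembly factors other than Psmg4 have lower means.

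No proteasome gene passed the test against wildtype on either day. By limma, with p-values adjusted over all 11735 genes and a threshold of 0.05, 0 of 44 members were called at day 4 (all genes 1.02%), 0 at day 6 (all genes 0.0426%) and 0 with both days averaged (all genes 0.162%). Between day 6 and day 4 knockouts 0 members passed, as did 0% of all genes. At an unadjusted p under 0.05 the members counted 10 at day 4 (22.7%, against 18.6% of all genes), 8 of them higher (18.2%, against 6.2%) and 2 lower (4.55%, against 12.3%). At day 6 there were 2 (4.55%, against 7.26%), both higher (all genes 3.79%) and 0 lower (all genes 3.47%). With both days averaged there were 6 (13.6%, against 13.8%), 4 higher (9.09%, against 5.27%) and 2 lower (4.55%, against 8.58%). For day 6 against day 4 there were again 6 (13.6%, against 11.5%), 1 higher (2.27%, against 8.53%) and 5 lower (11.4%, against 2.93%). The totals lay near those of all genes, while at day 4 the members' share was above that of all genes on the higher side and below it on the lower side. The first 3 comparisons share the wildtype libraries.

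Of the 44 members, 36 had a log2 change above 0 at day 4 (81.8%, against 43.1% of all genes), with a median of 0.25 against -0.06 over all genes. All 17 genes of the regulatory particle, 13 of 15 tested core genes, 4 of 7 assembly factors and 2 of 5 activators and inhibitors were on that side. Psma8, which passed the filter only through the day 4 knockouts, is among these core genes and in the later counts of day 4 knockouts above controls. At day 6, 25 of 44 were above 0 (56.8%, against 49.1%) and the median was 0.06. Between day 6 and day 4 knockouts, which also differ in harvest set, 12 of 44 members had a log2 change above 0 (27.3%, against 56.5%) and 32 had one below 0. The median was -0.15, against 0.05 over all genes. With both days averaged 34 were above 0 (77.3%, against 44.7%). None of these medians was tested as a list.

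Much of the day 4 median came from 1 library. Day 4 knockout replicate 2 held the highest value of the 7 for 33 of 44 members (75.0%), against 24.9% of all genes, and the first day 6 set control held the lowest for 18 (40.9%, against 17.4%). The members' median deviation from the control mean, in log2(FPKM + 1), was 0.46 in day 4 knockout replicate 2. It was 0.05 in day 4 knockout replicate 1, 0.03 and 0.09 in the day 6 knockouts, and -0.02, -0.07 and 0.09 in the controls. Without replicate 2 the members' day 4 median was therefore 0.05, and the median over all genes was -0.14. With both replicates these were 0.25 and -0.06, so the members' median was smaller but still above that of all genes without replicate 2. That library is also the one with the low immune markers and low Cd81 given above. Summed endothelial markers, Cd34, Wnt2b and Pdgfra differ between knockouts and controls as well, and the part of these markers in the proteasome values was not tested. Against the control of the same harvest set, the day 4 median was 0.26 and the day 6 median 0.05. Both day 4 knockouts lay above the day 4 set control for 31 of 44 members (70.5%, against 29.1% of all genes) and below it for 4 (9.09%, against 34.5%). Both day 6 knockouts lay above both controls of their set for 13 (29.5%, against 19.7%) and below them for 7 (15.9%, against 22.5%).

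**Figure D2:**
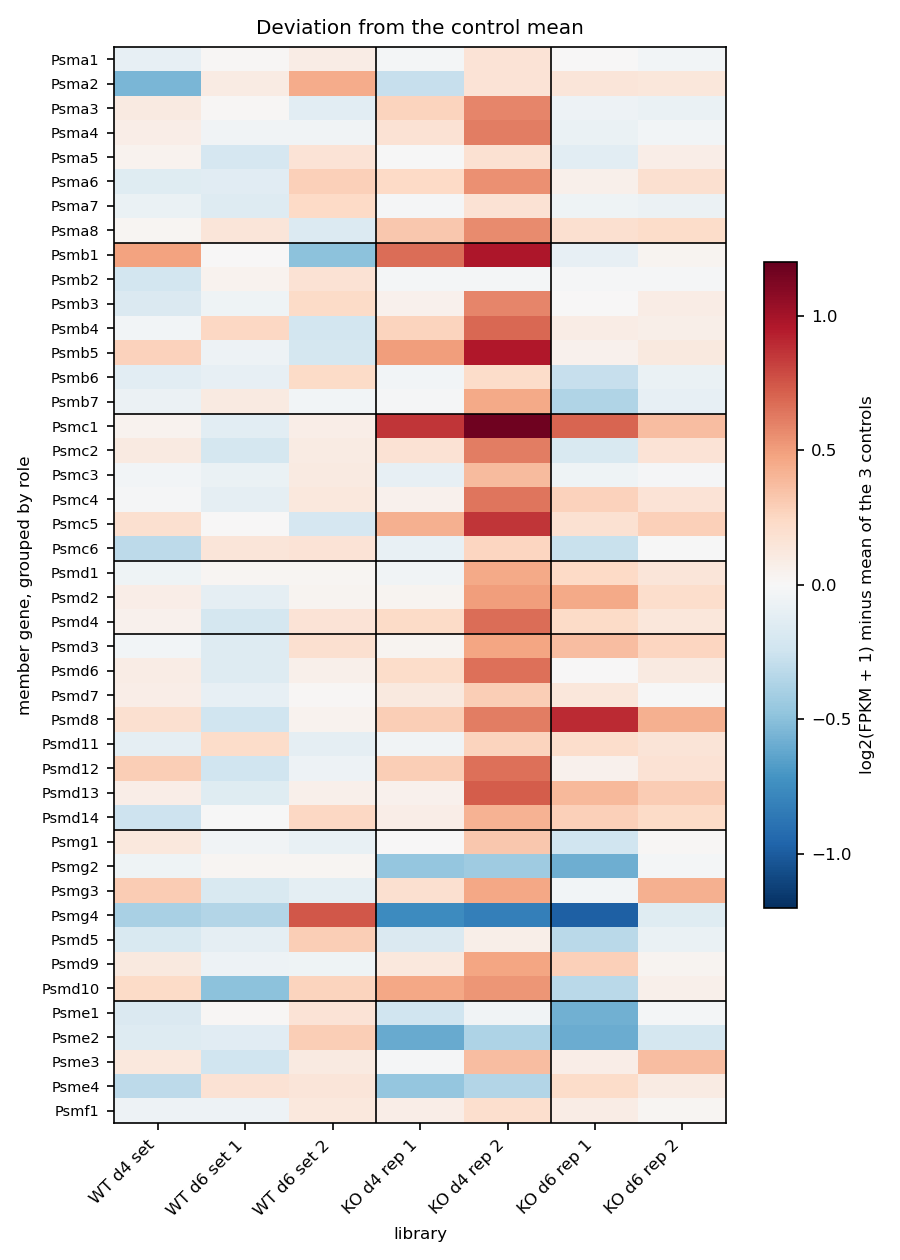
Deviation of log2(FPKM + 1) from the mean of the 3 controls (colour, red higher and blue lower) for the 44 tested proteasome genes (rows, grouped by role) in the 7 libraries (columns; KO is knockout, WT wildtype). Day 4 knockout replicate 2 is the most red column, with a median of 0.46, and Psmc1 and Psmd8 are red in all 4 knockout columns.

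The promoters of Psmc1 and Psmb5 are shown because these members had the smallest unadjusted p at day 4. Both are RefSeq sequences on GRCm38.p6, the 200 bases before the start site on the gene's strand, with motif matches in capitals. Psmc1 lies on the plus strand (chr12:100110002-100110201), with a CCAAT box and an ETS core in reverse. Psmb5 lies on the minus strand (chr14:54617996-54618195), with a match to the core of the antioxidant response element, the element that Nfe2l1 binds.
Psmc1: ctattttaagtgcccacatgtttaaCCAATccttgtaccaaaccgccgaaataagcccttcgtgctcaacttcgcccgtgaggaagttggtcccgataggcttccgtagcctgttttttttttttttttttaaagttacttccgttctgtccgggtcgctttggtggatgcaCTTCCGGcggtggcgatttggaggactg
Psmb5: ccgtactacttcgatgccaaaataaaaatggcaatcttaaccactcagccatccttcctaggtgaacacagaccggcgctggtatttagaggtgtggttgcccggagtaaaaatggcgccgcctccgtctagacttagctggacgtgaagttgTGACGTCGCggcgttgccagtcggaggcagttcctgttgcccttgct
Windows from 250 bases before the start site to 50 after it were found for 37 of the 45 members in 40 entries. Both strands were searched for CCGGAAG (ETS), CCAAT, TGACNNNGC (antioxidant response element core) and TATAAA, each counted on its own even where matches overlap. CCGGAAG was in 15 of the 40 entries (37.5%), against 8.86% of all 32851 promoters in the table. CCAAT was in 32.5% (all promoters 37.4%), TGACNNNGC in 15.0% (12.4%) and TATAAA in 7.5% (13.6%). The median log2 change at day 4 was 0.36 over the 14 tested genes with CCGGAAG and 0.23 over the 22 without it. With TGACNNNGC it was 0.20 over 6 genes (Psmb5, Psmb6, Psmc6, Psmd12, Psmd9 and Psme4), and 0.29 over the 30 without. A match is a description of the letters and not of a bound site.

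Alpha ring genes, whose products form the outer rings and the gate of the core, had a median log2 change of 0.24 at day 4 and -0.02 at day 6. Psma7, the most abundant member of all, was at 95.5, 90.4 and 119 FPKM in the controls, 99.7 and 114 FPKM at day 4 and 97.3 and 96.1 FPKM at day 6, and the 3 groups overlapped, with a log2 change of 0.08 ± 0.18 (SE) at day 4 and -0.06 ± 0.18 at day 6. Psma1 had a range over the 7 libraries of only 0.27 in log2(FPKM + 1), from 56.6 to 68.2 FPKM. Psma2 was at 51.5, 81.2 and 103 FPKM in the controls, 62.05 and 84.8 FPKM at day 4 and 83.5 and 83.00 FPKM at day 6. Its lowest value was in the day 4 set control and its highest in the second day 6 set control, so the controls spanned both knockout groups. Psma3, the least abundant structural member apart from Psma8 and Psmb11, was at 21.1, 19.8 and 17.8 FPKM in the controls, 23.7 and 29.9 FPKM at day 4 and 18.6 and 18.5 FPKM at day 6. Both day 4 values lay above all controls, while the day 6 values lay within them (log2 change 0.43 ± 0.16 at day 4, limma adjusted p = 0.225, and -0.50 ± 0.18 for day 6 against day 4, adjusted p = 0.361).

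Psma3 and Psma4 belonged to a few members that followed the harvest set. For 5 of the 44 tested members (11.4%, against 3.78% of all genes) every library of the day 4 set, control included, lay above every library of the day 6 set: Psma3, Psma4, Psmb1, Psmb5 and Psmd12. The reverse was so for Psmb2 and Psme4 (4.55%, against 9.65%). For these genes a difference between a knockout day and the pooled controls contains a difference between sets, so values against controls of the same set are also given. At day 4 these were 0.32 ± 0.23 (SE) for Psma3, 0.31 ± 0.24 for Psma4 and 0.20 ± 0.21 for Psmb2.

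The beta ring, which carries the proteolytic sites, held the largest day 4 log2 changes of the core. Psmb5, the chymotrypsin-like subunit, was at 44.96, 35.4 and 31.95 FPKM in the controls, 52.7 and 73.1 FPKM at day 4 and 38.6 and 40.4 FPKM at day 6. The day 4 knockouts lay above all controls and the day 6 knockouts between the controls, giving log2 changes of 0.73 ± 0.21 (SE, limma adjusted p = 0.134) and 0.09 ± 0.21 (adjusted p = 0.959). With only controls of the same set the value was 0.46 ± 0.25 at day 4 and 0.22 at day 6. Day 6 against day 4, also a comparison between sets, gave -0.64 ± 0.23 (adjusted p = 0.361). Psmb6, the caspase-like subunit, was at 66.3, 67.7 and 85.3 FPKM in the controls, 71.00 and 84.6 FPKM at day 4 and 59.7 and 68.6 FPKM at day 6. Psmb7, the trypsin-like subunit, was at 29.9, 33.9 and 30.8 FPKM in the controls, 31.1 and 43.6 FPKM at day 4 and 24.4 and 29.3 FPKM at day 6. The groups overlapped for Psmb6, while both day 6 values of Psmb7 lay below all controls, with a log2 change of -0.23 ± 0.19 (adjusted p = 0.855). At day 4 Psmb6 and Psmb7 had log2 changes of 0.09 ± 0.18 and 0.22 ± 0.19, and at day 6 Psmb6 had one of -0.18 ± 0.18. The 3 catalytic subunits were thus all above 0 at day 4, Psmb6 by less than its SE, and had mixed signs at day 6. With both days averaged Psmb5, Psmb6 and Psmb7 were at 0.41 ± 0.17, -0.04 ± 0.15 and -0.00 ± 0.16.

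Psmb1, a structural beta subunit, was the most uneven of the core genes, at 55.9, 40.1 and 28.1 FPKM in the controls, 64.1 and 79.1 FPKM at day 4 and 37.1 and 40.8 FPKM at day 6. The day 4 set control exceeded both other controls and both day 6 knockouts, and the day 4 knockouts were higher still. The log2 change at day 4 was 0.82 ± 0.27 (SE, limma adjusted p = 0.177) against all controls and 0.34 ± 0.27 against the day 4 set control. Day 6 against day 4 gave -0.86 ± 0.30, the largest difference of any member between the knockout days (adjusted p = 0.361). That comparison is also one between sets, and against controls of the same set the day 6 value was 0.21. Psmb2, the most abundant beta subunit, was at 77.8, 93.4 and 103 FPKM in the controls, 89.2 and 89.3 FPKM at day 4 and 90.1 and 89.9 FPKM at day 6, with knockout values that differed by under 1 FPKM from each other and lay inside the span of the controls. Psmb3 and Psmb4, the remaining structural beta subunits, had log2 changes of 0.32 ± 0.21 and 0.48 ± 0.20 at day 4 and 0.05 ± 0.21 and 0.08 ± 0.20 at day 6.

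In the ATPase ring, the motor that unfolds substrates, Psmc1 came nearest to the threshold of all members. It was at 40.5, 35.9 and 41.4 FPKM in the controls, 71.7 and 89.4 FPKM at day 4 and 64.4 and 50.97 FPKM at day 6. All 4 knockout libraries lay above all 3 controls, and the controls were close together. The log2 change was 1.01 ± 0.18 (SE, limma adjusted p = 0.0509) at day 4, 0.54 ± 0.18 (adjusted p = 0.598) at day 6 and 0.77 ± 0.15 (adjusted p = 0.0963) with both days averaged. Against controls of the same set it was of like size, 0.97 ± 0.25 at day 4 (adjusted p = 0.351) and 0.56 ± 0.21 at day 6 (adjusted p = 0.569). Over 14 alternative settings and left-out libraries the day 4 value ranged from 0.85 to 1.17 and its adjusted p from 0.0372 to 0.351. It passed under 4 of them: quantile normalization, centring each library on its median, keeping only genes with a mean of at least 3 FPKM, and leaving out the day 4 set control.

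The other ATPases stayed behind Psmc1. Psmc5 was at 39.03, 34.1 and 29.4 FPKM in the controls, 46.1 and 62.5 FPKM at day 4 and 38.7 and 41.6 FPKM at day 6. Its day 4 values lay above all controls and its day 6 values lay just below and just above the highest control, with log2 changes of 0.64 ± 0.19 (SE, limma adjusted p = 0.15) and 0.23 ± 0.19. Psmc3, the most abundant of the ring, was at 54.1, 52.4 and 59.9 FPKM in the controls, 51.7 and 72.4 FPKM at day 4 and 53.2 and 54.9 FPKM at day 6. Psmc6, the least abundant, was at 25.8, 35.8 and 36.3 FPKM in the controls, 30.2 and 38.7 FPKM at day 4 and 26.5 and 32.1 FPKM at day 6. For both of them the knockout and control libraries overlapped on each day. Psmc2 and Psmc4 had day 4 log2 changes of 0.39 ± 0.21 and 0.35 ± 0.20. All 6 ATPases had their highest value of the 7 libraries in day 4 knockout replicate 2.

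In the non-ATPase base, the large scaffold subunits Psmd1 and Psmd2 and the ubiquitin receptor Psmd4 all had log2 changes above 0 on both days. Psmd2 was at 49.4, 43.2 and 47.6 FPKM in the controls, 47.8 and 66.5 FPKM at day 4 and 64.5 and 54.2 FPKM at day 6. Both day 6 values exceeded all controls, and the first day 4 replicate lay among them, for log2 changes of 0.33 ± 0.19 (SE, limma adjusted p = 0.775) at day 6 and 0.27 ± 0.19 at day 4. Psmd1 was at 28.6, 30.3 and 30.4 FPKM in the controls, 28.9 and 41.2 FPKM at day 4 and 35.4 and 32.9 FPKM at day 6, with controls close together and both day 6 knockouts above them. Psmd4, the most abundant of the 3, was at 49.3, 40.9 and 53.5 FPKM in the controls, 55.95 and 76.2 FPKM at day 4 and 55.96 and 52.5 FPKM at day 6. Its day 4 values were above all controls and its day 6 values overlapped them (0.45 ± 0.19, adjusted p = 0.272, and 0.18 ± 0.19, adjusted p = 0.903).

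The lid, which docks and deubiquitinates substrates, had all of its 8 members above 0 on both days, as the non-ATPase base had all 3. The lid's median log2 change was 0.32 at day 4 and 0.22 at day 6, where the alpha and beta rings stood at -0.02 and -0.01. Psmd8 was at 56.1, 41.4 and 50.4 FPKM in the controls, 60.4 and 75.2 FPKM at day 4 and 91.6 and 65.95 FPKM at day 6. All 4 knockouts lay above all 3 controls, and day 6 knockout replicate 1, which had the highest summed epithelial markers, was the highest library. The log2 change was 0.66 ± 0.22 (SE, limma adjusted p = 0.594) at day 6, 0.45 ± 0.22 (adjusted p = 0.308) at day 4 and 0.56 ± 0.18 (adjusted p = 0.23) with both days averaged. Psmd13 was at 34.5, 29.4 and 33.9 FPKM in the controls, 33.7 and 54.4 FPKM at day 4 and 42.97 and 40.5 FPKM at day 6. Psmd3 was at 40.5, 37.2 and 47.5 FPKM in the controls, 42.6 and 57.9 FPKM at day 4 and 53.9 and 49.99 FPKM at day 6. In each of them both day 6 knockouts exceeded all controls, whereas at day 4 replicate 2 exceeded them and replicate 1 did not (0.35 ± 0.21 for Psmd13 and 0.31 ± 0.19 for Psmd3 at day 6, adjusted p = 0.803 and 0.794).

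Psmd12, the least abundant lid gene, was at 29.4, 19.9 and 22.7 FPKM in the controls, 29.3 and 38.2 FPKM at day 4 and 24.7 and 26.9 FPKM at day 6, with the day 4 set control above both day 6 knockouts. The log2 change at day 4 was 0.48 ± 0.21 (SE) against all controls and 0.18 ± 0.24 against the day 4 set control. Psmd14, the deubiquitinase of the lid, had log2 changes of 0.25 ± 0.19 at day 4 and 0.26 ± 0.19 at day 6, and Psmd6, Psmd7 and Psmd11 lay between 0.06 and 0.44 over both days. Across the 44 members, all 4 knockouts lay above all 3 controls for 3 genes, Psmc1, Psmd8 and Psma8, which passed the filter only through day 4 (6.82%, against 5.32% of all genes). They lay below for 1, Psme2 (2.27%, against 6.58%). Taken by day, the day 4 knockouts were above all controls for 15 members (34.1%, against 12.5%) and below for 4 (9.09%, against 22%), and the day 6 knockouts above for 8 (18.2%, against 13.9%) and below for 2 (4.55%, against 11.9%). Psma8 is among the 15 and among the 8.

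The mean level of the 17 regulatory particle genes divided by that of the 15 tested core genes gave a ratio for each library. It was 0.841, 0.742 and 0.749 in the controls, 0.823 and 0.886 at day 4 and 0.975 and 0.877 at day 6. Both day 6 knockouts were above both controls of their own set, and the day 4 knockouts lay on either side of theirs. No test was made of this ratio.

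**Figure D3:**
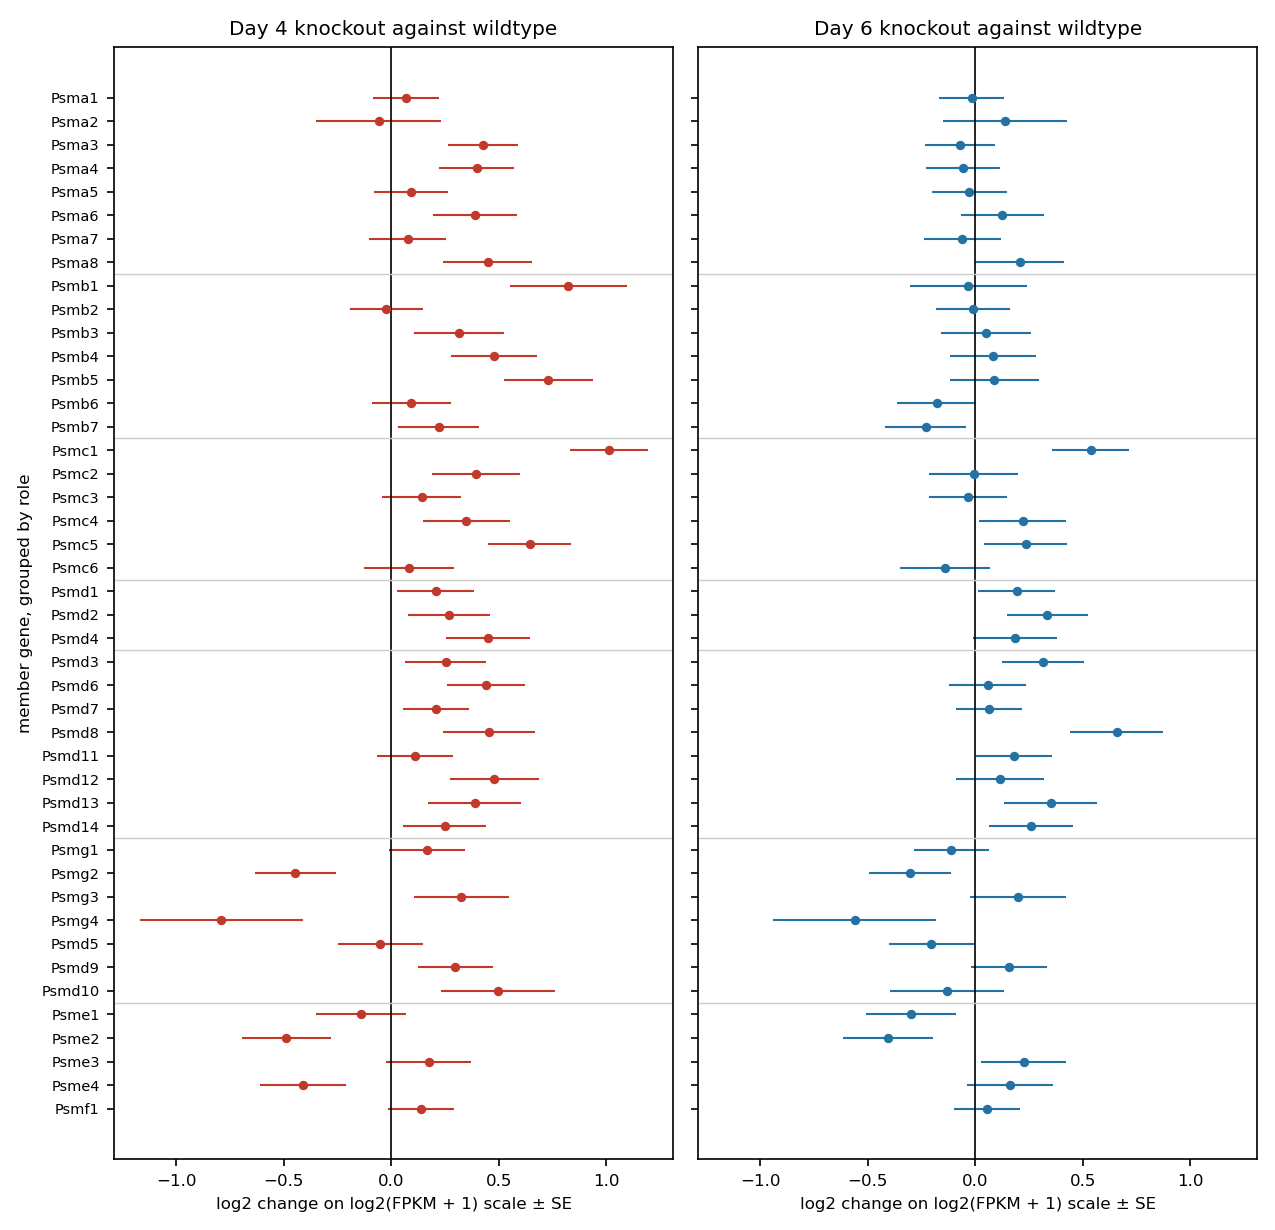
Log2 change against the 3 wildtype controls on the log2(FPKM + 1) scale (points, with bars of 1 SE from limma) for the 44 tested proteasome genes, at day 4 on the left and day 6 on the right. At day 4 all 17 regulatory particle genes are right of 0, led by Psmc1 at 1.01, and at day 6 Psmd8 at 0.66 is farthest right.

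Assembly factors within the naming rule, other than Psmg4, were lower in level, and as a group they were mixed in direction. The chaperones Psmg1 and Psmg2 work as a pair in building the alpha ring, as do Psmg3 and Psmg4. Psmg1 was at 9.64, 8.47 and 8.16 FPKM in the controls, 8.79 and 11.2 FPKM at day 4 and 7.24 and 8.85 FPKM at day 6. Psmg2 was at 16.7, 17.6 and 17.6 FPKM in the controls, 12.3 and 12.6 FPKM at day 4 and 11.2 and 17.02 FPKM at day 6. For Psmg1 the groups overlapped, and for Psmg2 the controls were within 1 FPKM of each other, both day 4 knockouts and day 6 replicate 1 were lower, and day 6 replicate 2 lay among the controls. The log2 change of Psmg2 was -0.45 ± 0.19 (SE, limma adjusted p = 0.264) at day 4 and -0.30 ± 0.19 (adjusted p = 0.804) at day 6. Psmg3 was at 9.86, 6.73 and 7.11 FPKM in the controls, 9.04 and 11.1 FPKM at day 4 and 7.62 and 10.8 FPKM at day 6. Psmg4 was at 28.97, 29.7 and 64.6 FPKM in the controls, 22.2 and 21.2 FPKM at day 4 and 18.9 and 34.6 FPKM at day 6. Psmg4 was the most variable member, and its second day 6 set control was more than double either other control. Its log2 change was -0.79 ± 0.38 (adjusted p = 0.315) at day 4 and -0.56 ± 0.38 at day 6, with the day 4 value at -0.40 ± 0.49 against the day 4 set control.

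The chaperones of the base, which guide the ATPases, were no more uniform. Psmd10, also called gankyrin and the least abundant assembly factor, was at 5.00, 2.65 and 5.18 FPKM in the controls, 6.10 and 6.39 FPKM at day 4 and 3.10 and 4.35 FPKM at day 6. Both day 4 values exceeded all controls and the day 6 values lay inside the control span (0.50 ± 0.26 at day 4, limma adjusted p = 0.359, and -0.63 ± 0.29 for day 6 against day 4). Psmd5 was at 14.5, 15.3 and 20.7 FPKM in the controls, 14.7 and 17.5 FPKM at day 4 and 13.04 and 15.7 FPKM at day 6. Psmd9 was at 10.7, 9.33 and 9.43 FPKM in the controls, 10.8 and 13.96 FPKM at day 4 and 12.2 and 10.02 FPKM at day 6. Knockout and control values overlapped for Psmd5, and for Psmd9 day 4 replicate 1 was barely above the highest control and replicate 2 clearly above it. Pomp, the maturation factor of the core and outside the naming rule, was at 47.4, 57.5 and 58.1 FPKM in the controls, 49.4 and 59.8 FPKM at day 4 and 49.9 and 54.2 FPKM at day 6, with log2 changes of 0.01 ± 0.17 and -0.06 ± 0.17.

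Activators were mixed in direction, with a median log2 change of -0.14 at day 4 and 0.06 at day 6. Psme1 and Psme2 form the interferon-inducible cap of the core. Psme1 was at 65.5, 74.8 and 82.9 FPKM in the controls, 62.5 and 71.8 FPKM at day 4 and 49.5 and 72.9 FPKM at day 6, overlapping between groups, with a log2 change of -0.30 ± 0.21 at day 6. Psme2 was at 46.2, 46.8 and 63.8 FPKM in the controls, 33.7 and 39.7 FPKM at day 4 and 33.8 and 44.4 FPKM at day 6. Every knockout library was below every control, for log2 changes of -0.49 ± 0.21 (SE, limma adjusted p = 0.267) at day 4, -0.41 ± 0.21 (adjusted p = 0.742) at day 6 and -0.45 ± 0.17 (adjusted p = 0.312) with both days averaged. Psme4, a large nuclear activator, was at 3.48, 5.29 and 5.14 FPKM in the controls, 3.05 and 3.35 FPKM at day 4 and 5.49 and 4.98 FPKM at day 6. Its day 4 set control sat with the day 4 knockouts, so the value of -0.41 ± 0.20 against all controls became -0.09 ± 0.23 against the control of the same set. Psme3, a nuclear activator, and Psmf1, an inhibitor of the core, had log2 changes between 0.06 and 0.23 on both days.

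**Figure D4:**
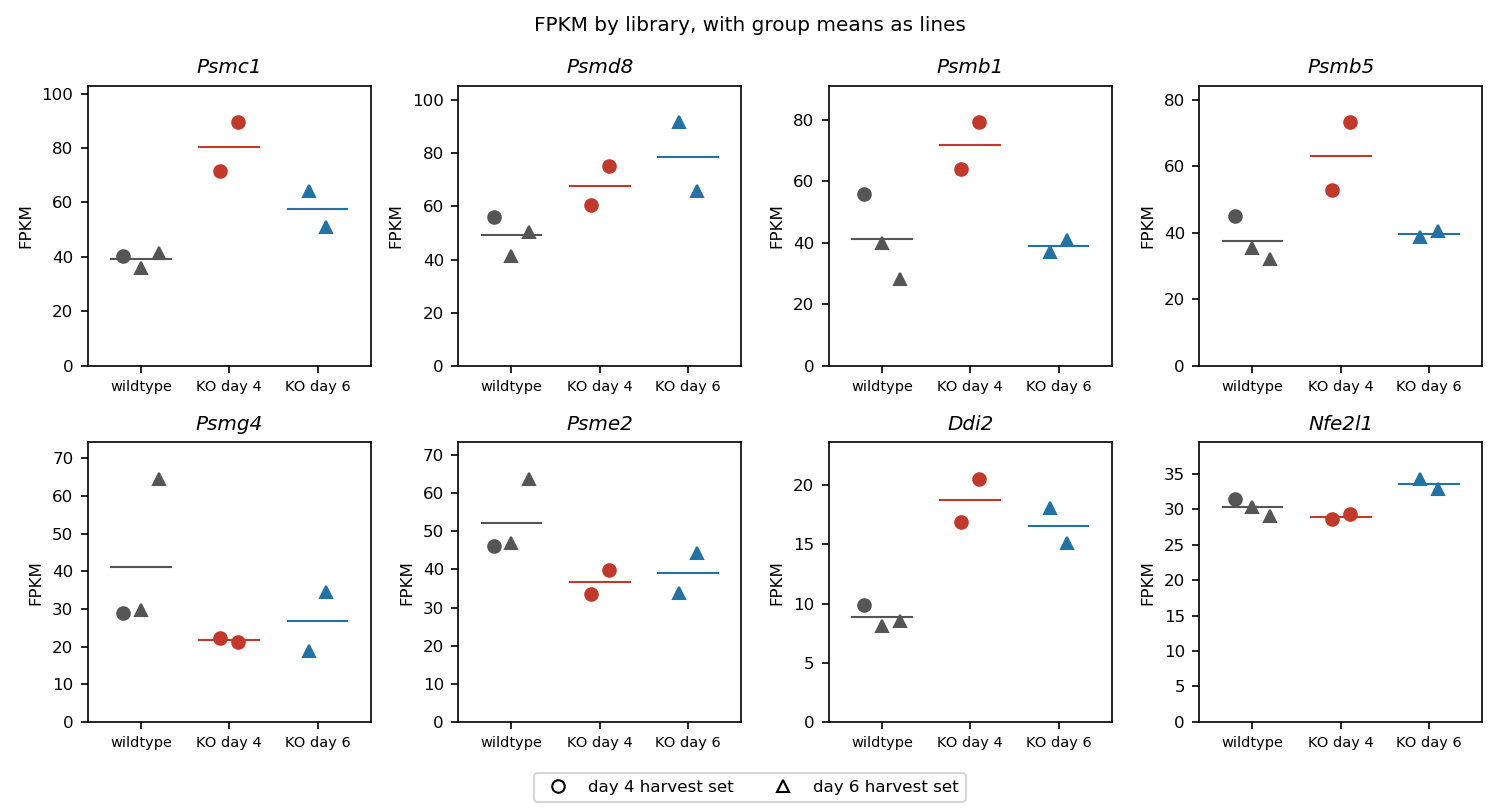
FPKM of 6 proteasome genes and of Ddi2 and Nfe2l1 in each library (circles for the day 4 harvest set, triangles for the day 6 set), with lines at the group means; KO is knockout. Psmc1, Psmd8 and Ddi2 are higher in all 4 knockout libraries than in all 3 controls, Psme2 is lower, and Psmb1 and Psmb5 follow the harvest set.

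Genes around the proteasome were read from the same fit. The 3 immunoproteasome subunits had medians of -0.70 at day 4 and -0.59 at day 6, and 0 passed. Psmb8 was at 74.6, 56.8 and 76.7 FPKM in the controls, 52.7 and 52.4 FPKM at day 4 and 31.4 and 65.7 FPKM at day 6. Psmb9 was at 45.3, 24.4 and 33.8 FPKM in the controls, 22.5 and 18.2 FPKM at day 4 and 7.92 and 34.5 FPKM at day 6. Day 6 knockout replicate 1 was the lowest library for both. As a share of the pair that competes for one place in the ring, Psmb8 made up 62.4, 61.6 and 70.6% of Psmb8 plus Psmb5 in the controls, 49.99 and 41.7% at day 4 and 44.9 and 61.9% at day 6. Psmb10 made up 60.2, 56.1 and 64.4% of Psmb10 plus Psmb7 in the controls, 44.3 and 41.7% at day 4 and 49.1 and 59.7% at day 6. In both pairs 3 of the 4 knockouts were below all controls, and day 6 knockout replicate 2 was not. Immune marker sums were highest in day 4 knockout replicate 1 and lowest in replicate 2. These shares were not tested, nor was the part of immune cells in them.

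In the transcription factor pathway 1 of 10 tested genes, Ddi2, rose at day 4 and 0 fell (1.02% of all genes were called). Ddi2 was at 9.86, 8.12 and 8.52 FPKM in the controls, 16.9 and 20.5 FPKM at day 4 and 18.03 and 15.1 FPKM at day 6. Every knockout thus lay above every control, as for 5.32% of all genes. The log2 change was 1.00 ± 0.17 (SE, limma adjusted p = 0.0443) at day 4, 0.84 ± 0.17 (adjusted p = 0.319) at day 6 and 0.92 ± 0.14 (adjusted p = 0.0607) with both days averaged. The day 4 call held under 6 of 14 alternatives, and its adjusted p over all 14 ranged from 0.0319 to 0.370. It was lost with no filter, with only the control of the same set (0.86 ± 0.23, adjusted p = 0.370) and on leaving out any 1 library other than the day 4 set control. Exons of Ddi2 overlap Rsc1a1 on the same strand in the GENCODE M21 annotation, so reads of these genes may not be told apart. Nfe2l1 itself was at 31.4, 30.4 and 29.04 FPKM in the controls, 28.7 and 29.3 FPKM at day 4 and 34.3 and 32.8 FPKM at day 6, with a log2 change of -0.06 ± 0.14 at day 4 and 0.15 ± 0.14 at day 6, and Nfe2l2, its stress-responsive relative, was at 0.43 ± 0.16 (adjusted p = 0.211) and -0.03 ± 0.16. Mafk, a partner of both, had the lowest value of the list with both days averaged, -0.18 ± 0.25.

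Other parts of the system showed 0 calls by limma on either day, with 1 partner, 2 ubiquitin genes and 0 shuttle factors at an unadjusted p under 0.05 at day 4. Over all genes 1.02% were called and 18.6% had such a p at day 4, so these counts lie near or below the background. Of 10 tested proteasome partners, the ubiquitin receptor Adrm1 was highest with both days averaged at 0.35 ± 0.16 (SE, limma adjusted p = 0.398) and the deubiquitinase Usp14 lowest at -0.15 ± 0.17, with a list median of 0.05 on each day. Over 10 genes of ubiquitin supply and activation the median was 0.18 at day 4 and -0.10 at day 6, from Ube2n at 0.24 ± 0.17 to Uba6 at -0.22 ± 0.14 with both days averaged. The 5 tested shuttle factors, which carry ubiquitinated proteins to the proteasome, had a median of -0.36 at day 4 and -0.01 at day 6. Of these Ubqln2 was lowest with both days averaged (-0.39 ± 0.25) and Ubqln1 highest (-0.06 ± 0.12).

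Counting may not have separated every member from its neighbours or copies. In GENCODE M21, exons of 10 of the 45 genes overlap another gene, among the genes named here Psma4, Psmb5, Psmb7, Psmc3, Psmd1, Psmd3, Psmd13, Psme1 and Psmg3. The overlap is on the same strand for Psmb5 (a microRNA gene), Psmd1 and Psmg3, and on the opposite strand for the others. Pseudogenes named after Psmb5, Psmb6 and Psmb7 are also annotated. Whether strand or multiple matches were used in counting is not given in the sources used here, so values of these genes are less certain.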

How the data were processed

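The table used holds FPKM values that the authors deposited, with 1 column per library. Per the submitters' processing notes, the tools included kallisto 0.46.1 and DESeq2 1.40.1, and the build was mm9. How FPKM were derived is not given in the sources used here. The table has 25493 rows; for 293 symbols that occur more than once the row with the highest mean was kept, and no member was among them. Of 24908 symbols 24772 matched the reference names.

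A gene was tested where 2 or more of the 7 libraries reached 1 FPKM. Values entered as log2(FPKM + 1), a scale that understates fold changes at low levels. Group means were estimated with limma 3.58.1 (R 4.3.3) with an intensity trend (4 residual degrees of freedom), checked on simulated data. Tests were two-sided, with Benjamini-Hochberg adjustment over all 11735 genes. The 4 comparisons were repeated with each of the 7 libraries left out, and with another pseudocount, other filters, scalings and same-set controls as alternatives. Members, lists and tests were chosen with earlier results of these data known. The lists were ones of proteasome partners, the immunoproteasome, transcription factors, ubiquitin, shuttles, chaperones, antioxidant targets, handling, proliferation and markers of 9 cell types. Values were given for catalytic subunits, assembly factors, the highest and lowest gene of each role, and the 5 largest changes in each direction per comparison. In other lists they were given for called genes and the extremes with both days averaged. Other genes given a value were added, after values were seen, to complete a role or pathway.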

Additional observations from a re-analysis of the deposited data

How the results depend on the processing

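The number of proteasome genes past the threshold at day 4 was 0 and became 1, Psmc1, with only genes of a mean of at least 3 FPKM, with quantile normalization and with libraries centred on their median, and 0 to 1 when 1 library was left out. In the other 3 comparisons it was 0 under every alternative run. Leaving out 1 library, the median log2 change of members ranged from 0.0496 to 0.459 at day 4, from 0.0873 to 0.288 with both days averaged, from -0.338 to -0.0291 for day 6 against day 4 and from 0.02 to 0.09 at day 6. The low end at day 4 is without day 4 knockout replicate 2 and the high end without replicate 1. The day 4 medians over all genes in these fits were -0.139 and 0.0116. No median changed sign in 58 recomputed values, and 4 of 2460 values of single members changed their call, all of Psmc1 at day 4. Some of these log2 changes could not move, as leaving out a library changes no difference between other groups. The day 4 median, for instance, stayed at 0.2512 without either day 6 knockout. Over all genes the day 4 count of 120 became 474 without the day 4 set control, 5 with same-set controls, 9 on leaving out day 4 knockout replicate 2, 6 or 2 without one of the day 6 set controls and 0 without a filter. A replicate block could be fitted to the knockout libraries alone, where day 6 against day 4 gave 0 members and a median of -0.15 with and without it, and 15 and 61 of all genes. Deviations of same-numbered knockouts had r = -0.028 across 11735 genes, which are not independent. With 2 pairs this does not show whether the numbers mark a shared batch or litter, and the labels do not say, so they were not used as pairs. The fit without the block was added after seeing the data. No paired analysis was possible for the wildtype comparisons because the control columns carry no replicate number of the labels. Depth in reads is unknown, so no counting limit can be given for low genes such as Psma8.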

Other observations

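Genes of neighbouring protein quality control did not pass the test on either day. Of 20 tested chaperones 0 were called by limma at day 4 or day 6, with 3 at an unadjusted p under 0.05 at day 4, a share below the 18.6% of all genes (1.02% of all genes were called). The small heat shock protein Hspb1 was at 33.3, 40.3 and 38.4 FPKM in the controls, 127 and 42.1 FPKM at day 4 and 106 and 73.2 FPKM at day 6, with day 4 knockout replicate 2 close to the controls and the other 3 knockouts well above them (log2 change with both days averaged 1.09 ± 0.35 (SE), adjusted p = 0.223). Dnajb1, a co-chaperone of Hsp70, had the lowest value at -0.65 ± 0.38, and the stress-inducible Hspa1a was at 532, 615 and 653 FPKM in the controls, 472 and 252 FPKM at day 4 and 377 and 478 FPKM at day 6. In the 8 listed genes of the chaperonin ring (Tcp1 and 7 Cct genes), which folds actin and tubulin, log2 changes with both days averaged lay between -0.0024 (Cct4) and 0.30 (Cct3).

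Antioxidant targets (7 tested), handling-induced early genes (10 tested) and proliferation genes (9 tested) also had 0 calls in each comparison with wildtype, with 1, 2 and 0 genes at an unadjusted p under 0.05 at day 4, against 18.6% of all genes (1.02% called). These counts are near or below that share. Their medians with both days averaged were 0.02, 0.0022 and -0.0006. The pentose phosphate enzyme G6pdx had the highest antioxidant value at 0.45 ± 0.14 (SE, limma adjusted p = 0.208), with all 4 knockouts above all 3 controls (14.6, 15.8 and 16.9 FPKM in the controls, 22.3 and 22.1 FPKM at day 4 and 24.5 and 18.96 FPKM at day 6). Nqo1 was lowest at -0.36 ± 0.25. Of the early genes Ier2 was highest (0.32 ± 0.22) and Fosb lowest (-0.75 ± 0.40), and of the proliferation genes the helicase subunit Mcm6 was highest (0.35 ± 0.14) and Rrm2 lowest (-0.24 ± 0.23). Fosb was lower in every library of the day 4 set than in every library of the day 6 set. Against controls of the same set its log2 change was -0.07 ± 0.33 at day 4 and -0.91 ± 0.27 at day 6.

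Of the marker lists outside the trophocyte one, 0 genes were called by limma against wildtype. With both days averaged the highest and lowest log2 changes (± SE) were 0.92 ± 0.40 for Krt8 and -0.83 ± 0.19 for Fabp2 in epithelium, and 0.86 ± 0.25 for Flt1 and -0.07 ± 0.20 for Tek in endothelium. They were 0.72 ± 0.41 for Itgam and -0.80 ± 0.96 for Cd74 in macrophages and dendritic cells, -0.13 ± 1.12 for Mzb1 and -0.55 ± 0.50 for Ms4a1 in B and plasma cells, and 0.10 ± 0.38 for Cd4 and -0.16 ± 0.33 for Cd3g in T cells. In smooth muscle they were 0.68 ± 0.52 for Actg2 and -0.00 ± 0.63 for Cnn1, and in telocytes 0.60 ± 0.31 for Bmp7 and -0.07 ± 0.26 for Wnt5a. No glial or neuronal marker reached the level for testing. Krt8 reached 1 FPKM only in the day 6 knockouts, and Fabp2 only in the controls. Each thus passed the filter only through the group in which it was high, so the filter favoured the direction given. Their values in all other libraries lay below 1 FPKM.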
